A study of Mus musculus with 14 samples.

Results

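The genes described here are 10 cyclins and cyclin-dependent kinases (CDKs), chosen by name: the D-type cyclins Ccnd1, Ccnd2 and Ccnd3 with their kinases Cdk4 and Cdk6, the E-type cyclins Ccne1 and Ccne2, and the later cyclins Ccna2 and Ccnb1 with the kinase Cdk1. They are 10 of 55450 gene identifiers in the deposited counts, and all 10 passed the filter on low counts that left 16878 genes for testing. They were read from RNA sequencing of 14 libraries of LT-HSCs (long-term hematopoietic stem cells), the bone marrow cells that can rebuild the blood for long periods, all from female C57BL/6 mice. Before transplantation, 5000 cells with low (Selp low, 4 libraries) or high surface P-selectin (Selp high, 4 libraries) were sorted from 4 mice older than 24 months. P-selectin is an adhesion receptor best known from platelets and endothelium, and both sorts took cells that carry Sca-1, c-Kit and CD150 and lack CD48 and lineage markers. After transplantation, donor-derived cells of the same surface type were sorted 16 weeks after 1000 old Selp low or Selp high cells had been given to lethally irradiated recipients of 10 to 16 weeks of age, giving 3 Selp low-derived and 3 Selp high-derived libraries. The gate after transplantation used CD45.2 and left P-selectin out. Stage therefore goes together with the host, its irradiation, the gate and the collection, which cannot be told apart. The labels do not say whether libraries after transplantation are of 1 recipient each, so p-values cover the spread between libraries.

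Assigned reads ran from 22374794 to 38216775 per library. The least counted of the 10 genes were Ccne2, with 72 to 865 reads per library, and Ccne1, with 92 to 628. The most counted were Ccnd2, with 13064 to 23321 reads, and Cdk4, with 10010 to 21426. The first principal component held 33.3% of the variance and separated the stages. All 12 of 12 HSC markers were detected in every library, with a summed level of 5563 to 6808 CPM (counts relative to library size) before and 3984 to 5333 CPM after transplantation. Summed neutrophil markers (10 genes) ran from 284 to 19711 CPM, with the highest values in the pair from mouse 4 (14559 and 19711 CPM) and in Selp low-derived replicate 2 (12272 CPM). Summed T cell markers (6 genes) stayed between 10.2 and 25.8 CPM. Summed megakaryocyte and platelet markers (7 genes) ran from 196 to 365 CPM, although Gp6, a platelet receptor gene among them, was at 0 in all 14 libraries.

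A cyclin binds and activates a CDK, and the timing of each cyclin's synthesis and destruction gives the cell cycle its order. D-type cyclins with Cdk4 or Cdk6 respond to growth signals and begin the phosphorylation of the retinoblastoma protein, which frees E2F factors, and cyclin E with Cdk2 drives entry into S phase. Cyclin A2 acts in S phase and G2, and cyclin B1 with Cdk1 starts mitosis. Most LT-HSCs rest outside the cycle, and low Cdk6 is known from human HSCs as a feature of delayed exit from rest.

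The promoters of Cdk1 and Ccnb1, which encode the mitotic kinase and its cyclin and had the largest differences between stages, are printed with that of Cdk4, which is abundant and had a small one. The RefSeq promoter table (GRCm38.p6) held 7 windows for 6 of the 10 genes. Ccna2, Ccnd1, Ccnd2 and Ccne2 had no entry. Sequences run 5′ to 3′ on the gene's strand, up to the base before the first annotated coding transcript start, at chr10:69352939-69353162 (minus strand) for Cdk1, chr13:100786571-100786736 (minus strand) for Ccnb1 and chr10:127063285-127063533 (plus strand) for Cdk4. Capitals mark matches to the letters given in the next paragraph.
Cdk1: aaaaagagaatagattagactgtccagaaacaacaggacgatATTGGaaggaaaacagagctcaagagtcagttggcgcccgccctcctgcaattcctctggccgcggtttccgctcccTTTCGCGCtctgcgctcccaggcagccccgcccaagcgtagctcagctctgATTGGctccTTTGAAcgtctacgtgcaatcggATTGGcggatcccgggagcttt
Ccnb1: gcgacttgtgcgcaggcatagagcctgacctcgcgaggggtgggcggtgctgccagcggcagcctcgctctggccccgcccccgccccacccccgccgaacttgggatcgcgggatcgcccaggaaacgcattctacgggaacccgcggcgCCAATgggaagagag
Cdk4: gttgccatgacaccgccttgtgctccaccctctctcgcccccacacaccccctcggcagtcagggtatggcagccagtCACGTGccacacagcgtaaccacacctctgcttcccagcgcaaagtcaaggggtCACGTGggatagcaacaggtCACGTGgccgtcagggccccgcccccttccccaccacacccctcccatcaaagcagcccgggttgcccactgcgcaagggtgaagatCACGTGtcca

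The 250 bases before each RefSeq start were searched on both strands for 4 kinds of letters, and no matches overlapped. They were the E2F letters TTTGGCGC, TTTCCCGC, TTTCGCGC or TTTGCCGC (in 1.86% of 32851 promoter windows), the cell cycle homology region letters TTTGAA or TTCGAA (17.1%), the CCAAT box CCAAT (33.8%) and the E-box CACGTG (6.02%). Cdk1 held the E2F letters at 131 to 124 bases before its start, the cell cycle homology region letters at 71 to 66 bases and again at 15 to 10 bases, and CCAAT on the opposite strand (ATTGG as printed) with first bases at 208, 80 and 48. The cell cycle homology region is known from genes of G2 and mitosis. Ccnb1 held CCAAT at 99 to 95 and 67 to 63 bases, but not the E2F, cell cycle homology region or E-box letters. Cdk4 held CACGTG with first bases at 172, 118, 98 and 11, and Cdk6 held it at 220. CACGTG is the element bound by MYC and related factors. The second of the Ccnd3 windows held CCAAT at 108, and the Ccne1 window held none of the 4 kinds of letters. The match at 15 to 10 in Cdk1 and that at 67 to 63 in Ccnb1 lie outside the printed stretches.

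Transplantation stage was the comparison in which any of these genes passed the test. By edgeR's quasi-likelihood test at a Benjamini-Hochberg adjusted p under 0.05, 8 of the 10 genes were called higher after transplantation and 0 lower, where 12.9% of all tested genes were called higher and 14.6% lower (27.4% in all). The largest rises were in Cdk1, Ccnb1 and Ccna2, at about the same size, followed by Ccne2, Cdk6 and Ccnd1. Cdk4 and Ccnd2, already abundant, rose by little, and Ccne1 and Ccnd3 did not pass the test. The median log2 change of the 10 genes was 1.20, against -0.01 over all tested genes. For 4 of the 10 genes (Cdk1, Ccnb1, Ccna2 and Cdk6) every library after transplantation lay above every library before it, where 4.28% of all genes were apart in this direction and 5.47% in the other. The fit counted the 8 libraries before transplantation as separate samples. Libraries of the same replicate number were treated elsewhere as pairs from 4 mice, a pairing inferred from their correlation. With both libraries of each mouse summed into 1, 8 of 10 genes were called, with 2.02 for Cdk1 (adjusted p = 6.3e-04) and 1.02 for Ccnd1 (adjusted p = 0.0175) on the log2 scale.

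**Figure D1:**
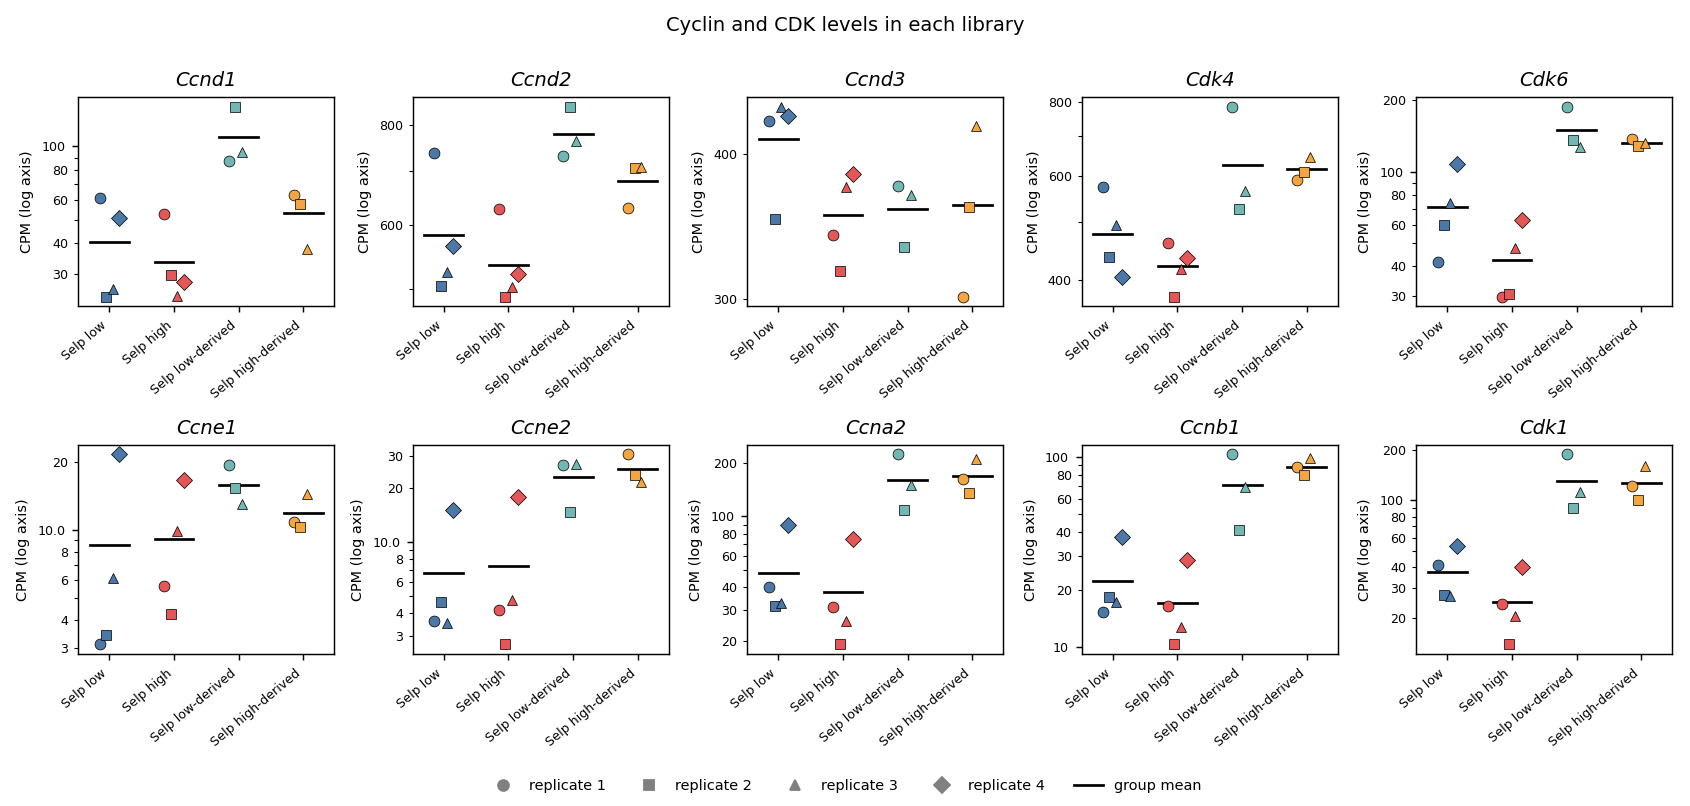
Level of each of the 10 genes in every library, as CPM on a log axis with its own range in each panel. Points are libraries, marked by replicate number, and black lines are group means. For Cdk1, Ccnb1, Ccna2 and Cdk6 every library after transplantation (Selp low-derived and Selp high-derived) sits above every library before it.

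Cdk1 (ENSMUSG00000019942.13, chr10:69335146-69352938 on GRCm38, minus strand) encodes the kinase that starts mitosis. Its level was 41.5, 27.3, 26.8 and 53.7 CPM in Selp low replicates 1 to 4 and 24.1, 13.9, 20.5 and 40.2 CPM in Selp high replicates 1 to 4. After transplantation it was 188, 89.8 and 112 CPM in Selp low-derived and 121, 100.8 and 159.8 CPM in Selp high-derived replicates 1 to 3. The lowest library after transplantation, Selp low-derived replicate 2, stood above the highest one before it, Selp low replicate 4. The fitted rise was 2.09 ± 0.25 on the log2 scale (SE), or 4.24-fold (adjusted p = 4.2e-05).

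Ccnb1 (ENSMUSG00000041431.16, chr13:100778650-100786570, minus strand) encodes the cyclin that activates Cdk1 for mitosis. It was at 15.3, 18.2, 17.1 and 37.7 CPM in Selp low and 16.4, 10.3, 12.7 and 28.5 CPM in Selp high libraries. Values after transplantation were 103, 40.9 and 68.9 CPM in Selp low-derived and 88.0, 80.4 and 98.2 CPM in Selp high-derived libraries. The Selp low-derived libraries spread over more than the whole range of the Selp high-derived ones, and their lowest value was close to the highest value before transplantation. Ccnb1 rose by 2.04 ± 0.27 (log2, SE), or 4.11-fold (adjusted p = 9.3e-05).

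Ccna2 (ENSMUSG00000027715.9, chr3:36564865-36572150, minus strand), the cyclin of S phase and G2, shared with Cdk1 and Ccnb1 its highest (Selp low-derived replicate 1) and its lowest library after transplantation (Selp low-derived replicate 2). Selp low libraries had 40.04, 31.6, 32.8 and 89.1 CPM and Selp high libraries 30.9, 19.1, 25.8 and 74.6 CPM. In the Selp low-derived libraries it was at 223, 109 and 151 CPM, and in the Selp high-derived ones at 162, 135 and 209 CPM. Both libraries of mouse 4 were well above the other libraries before transplantation, and Selp low-derived replicate 2 was the lowest after it. The rise was 1.95 ± 0.32 (log2, SE), or 3.86-fold (adjusted p = 4.5e-04). Some 510 exonic bases of Ccna2 are shared with Exosc9 on the other strand. The counts take no account of strand and the files set ambiguous reads aside, so reads over such shared bases cannot be placed in either gene.

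The E-type cyclins are partners of Cdk2 at the start of S phase and were the lowest of the 10 genes per length in Selp low, Selp low-derived and Selp high-derived libraries. Ccne2 (ENSMUSG00000028212.16, chr4:11191351-11204779, plus strand) was at 3.64, 4.60, 3.55 and 14.9 CPM in Selp low and 4.17, 2.69, 4.75 and 17.7 CPM in Selp high libraries. It was at 26.8, 14.6 and 27.2 CPM in Selp low-derived and 30.8, 23.4 and 21.7 CPM in Selp high-derived libraries. The stages overlapped only through mouse 4 on one side and Selp low-derived replicate 2 on the other. Ccne2 rose by 1.78 ± 0.43 (log2, SE), or 3.43-fold (adjusted p = 0.00676), and by 2.62 without mouse 4. It shares 609 exonic bases with Ints8 on the other strand, which had 1076 to 2077 reads per library.

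Ccne1 (ENSMUSG00000002068.16, chr7:38097984-38107534, minus strand) did not pass the test, at 0.64 ± 0.42 (log2, SE, adjusted p = 0.281). Before transplantation its lowest, median and highest levels over 8 libraries were 3.10, 5.88 and 21.7 CPM, and after it, over 6 libraries, 10.3, 13.8 and 19.4 CPM. Selp low replicate 4 had the highest level of all 14 libraries and Selp high replicate 4, at 16.6 CPM, the third highest. Without both libraries of mouse 4 the difference was 1.38 with an adjusted p of 9.9e-04, and without Selp low replicate 4 alone it was 1.15 with an adjusted p of 0.00964. Selp low replicate 4 thus decided whether this gene was called.

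Cdk6 (ENSMUSG00000040274.11, chr5:3341485-3531008, plus strand) encodes 1 of the kinases of the D-type cyclins. It was at 41.8, 60.0, 73.9 and 108 CPM in Selp low and 29.8, 30.5, 48.0 and 62.5 CPM in Selp high libraries. After transplantation it was at 188, 136 and 127 CPM in Selp low-derived libraries and at 137, 128 and 132 CPM in Selp high-derived libraries. The 6 later libraries lay within a narrow range apart from Selp low-derived replicate 1, and all were above the highest earlier value, in Selp low replicate 4. Cdk6 rose by 1.36 ± 0.21 (log2, SE), or 2.57-fold (adjusted p = 2.8e-04). Its partner kinase Cdk4 (ENSMUSG00000006728.12, chr10:127063534-127067920, plus strand) had a lowest, median and highest level of 374, 436 and 574 CPM before and 527, 599 and 785 CPM after transplantation. The ranges overlapped, and the rise was 0.47 ± 0.10 (log2, SE), or 1.38-fold (adjusted p = 0.00422). Cdk4 shares 641 exonic bases with Tspan31 on the other strand.

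Among the D-type cyclins, which carry growth signals to Cdk4 and Cdk6, Ccnd1 had the largest difference. Ccnd1 (ENSMUSG00000070348.5, chr7:144929931-144939925, minus strand) was at 61.5, 24.1, 26.0 and 50.9 CPM in Selp low and 52.8, 29.7, 24.3 and 27.9 CPM in Selp high libraries. It was at 87.0, 146 and 94.9 CPM in Selp low-derived and 63.0, 58.0 and 38.0 CPM in Selp high-derived libraries. All 3 Selp low-derived libraries were above every other library, while the Selp high-derived ones overlapped with those before transplantation. The rise over both inputs was 1.04 ± 0.24 (log2, SE), or 2.06-fold (adjusted p = 0.00586). Without Selp low-derived replicate 2, the library with the highest Ccnd1 and 12272 CPM of neutrophil markers, it was 0.91 with an adjusted p of 0.0182. Ccnd1 shares 1100 exonic bases with LTO1 on the other strand.

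Ccnd2 (ENSMUSG00000000184.12, chr6:127125162-127152193, minus strand) had a lowest, median and highest level of 488, 523 and 738 CPM before and 630.4, 719 and 842 CPM after transplantation. It rose by 0.38 ± 0.09 (log2, SE), or 1.30-fold (adjusted p = 0.00832), and Selp low replicate 1, at 738 CPM, reached into the later range. Ccnd3 (ENSMUSG00000034165.16, chr17:47505051-47599691, plus strand) had 317, 380 and 440 CPM before and 301, 365 and 423 CPM after transplantation. Its difference of -0.09 ± 0.09 (log2, SE, adjusted p = 0.504) did not pass the test, and it was the only one of the 10 genes with a value below 0 in this comparison. Ccnd2 shares 372 and 368 exonic bases with Gm43126 and 9330179D12Rik on the other strand, and Ccnd3 shares 361 with Bysl. The annotation also holds processed pseudogenes named Ccnd3-ps and Ccnb1-ps, so reads of these cyclins may be split or lost.

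Other measured features moved with stage. Summed markers of multipotent progenitors (6 genes) were at 264 to 431 CPM before and 438 to 694 CPM after transplantation, with no overlap. By median over all libraries, Cd34 (176 CPM) and Cd27 (113 CPM) were the largest of the 6, with Flt3 at 16.8 and Cd48 at 7.14 CPM. The HSC sum was lower after transplantation (3984 to 5333 CPM against 5563 to 6808 CPM). The part of these marker sums in the cyclin and CDK results was not tested. In bulk libraries, fewer cells of a type and less RNA per cell cannot be told apart. Neutrophil sums overlapped between stages. A fit chosen after seeing the data left out mouse 4, Selp low-derived replicate 2 and Selp high-derived replicate 1. The last of these had the lowest neutrophil sum after transplantation (346 CPM), so the fit did not leave out neutrophil-rich libraries alone. In this fit the rises were 2.49 for Cdk1, 2.56 for Ccnb1, 2.60 for Ccna2 and 1.64 for Cdk6 on the log2 scale.

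**Figure D2:**
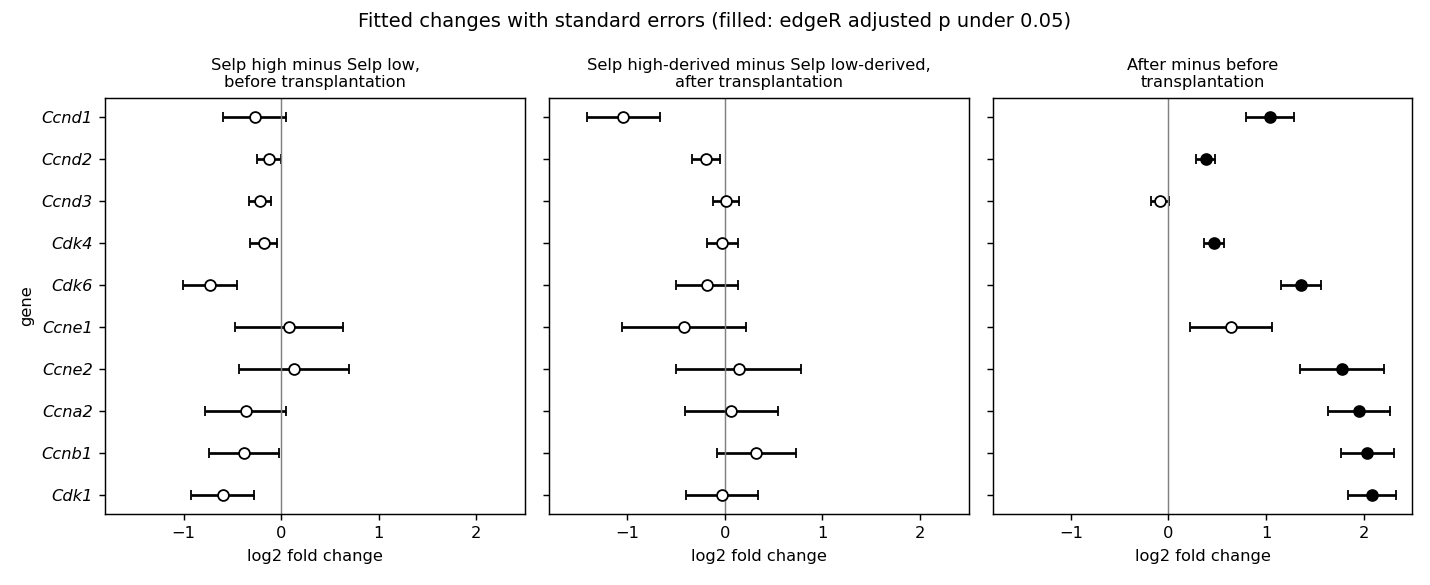
Fitted log2 fold changes of the 10 genes in the comparisons of Selp groups before and after transplantation and of the stages, with bars of 1 standard error. Filled points have an edgeR adjusted p under 0.05. Filled points appear only in the stage panel, for 8 of the 10 genes.

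Before transplantation, Selp high against Selp low, 0 of the 10 genes passed the test, where edgeR called 0 (0%) of 16878 genes and had 863 at an unadjusted p under 0.05. DESeq2 called 11 genes and limma voom 0, with 0 of the 10 genes among them. The largest difference was in Cdk6, at -0.73 ± 0.27 (log2, SE), or 1.66-fold lower in Selp high libraries (unadjusted p = 0.0187, adjusted p = 0.957). Cdk6 was the only member of the group with an unadjusted p under 0.05. Cdk1 was next, at -0.60 ± 0.32 with an adjusted p of 0.957. For 0 of the 10 genes were the 4 Selp high libraries apart from the 4 Selp low libraries, where 1.52% of all genes were apart with Selp high higher and 1.56% with Selp high lower.

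The libraries of a replicate number before transplantation deviated together and were taken as 1 mouse, which gives a difference within each mouse. Cdk6 was lower in the Selp high library in 4 of 4 mice, by values of -0.97 to -0.49 on the log2 CPM scale. Cdk1 was lower in 4 of 4 mice (-0.97 to -0.39), as were Ccna2 (-0.72 to -0.26), Ccnd3 (-0.33 to -0.15) and Ccnd2 (-0.23 to -0.05). Ccnb1, Ccnd1 and Cdk4 were lower in 3 of 4 mice, whereas Ccne1 and Ccne2 were higher in 3 of 4. The share of all tested genes lower in 4 of 4 mice was not computed, so these counts cannot be set against it. With the mouse as a replicate block the difference in Cdk6 was -0.71 (adjusted p = 0.130), in Cdk1 -0.63 (adjusted p = 0.164), in Ccna2 -0.41 (adjusted p = 0.180) and in Ccnd3 -0.20 (adjusted p = 0.230). None of these passed the threshold, and the blocked fit called 2 genes over the whole table.

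**Figure D3:**
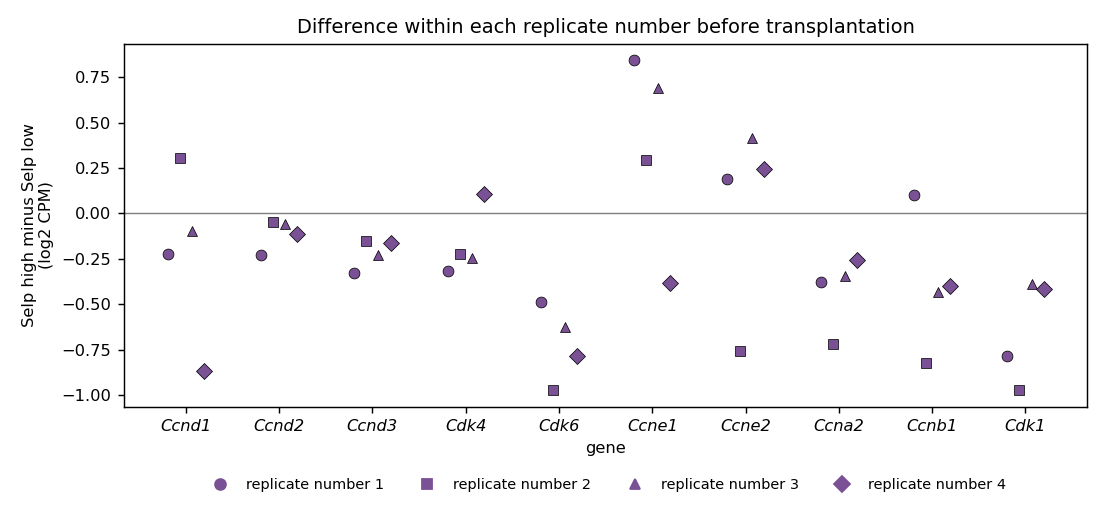
Difference between the Selp high and the Selp low library of each replicate number before transplantation, in log2 CPM, for each of the 10 genes, with 1 point per mouse. All 4 points lie below 0 for Ccnd2, Ccnd3, Cdk6, Ccna2 and Cdk1, and 3 of 4 lie above 0 for Ccne1 and Ccne2. The share of all tested genes with all 4 points below 0 was not computed.

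Mouse 4 stood apart within both sorts. Its libraries had the highest levels before transplantation of Cdk6, Cdk1 and the E, A and B cyclins in each sort. Ccnb1, for instance, was at 37.7 CPM in its Selp low and 28.5 CPM in its Selp high library, where the other 6 libraries had 10.3 to 18.2 CPM. Sums of neutrophil, multipotent progenitor, erythroid, macrophage, B cell and T cell markers were also the highest of each sort in mouse 4. Its Selp low and Selp high libraries had 431 and 407 CPM of multipotent progenitor and 4554 and 4020 CPM of erythroid markers. The part of these sums in the gene levels was not tested. Without mouse 4 the fitted difference was -0.70 for Cdk6 (adjusted p = 0.701) and -0.71 for Cdk1 (adjusted p = 0.725). Leaving out only its Selp low library gave -0.46 for Cdk6 and -0.37 for Cdk1, and leaving out only its Selp high library gave -0.97 and -0.94.

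After transplantation, none of the 10 genes passed the test between cells derived from Selp high and from Selp low input. Differences (Selp high-derived minus Selp low-derived, log2 ± SE) were -0.03 ± 0.37 for Cdk1, 0.07 ± 0.47 for Ccna2 and 0.32 ± 0.40 for Ccnb1, and the SEs leave room for changes of either direction. Leaving out Selp low-derived replicate 2 brought the Ccnb1 difference to 0.045, and leaving out replicate 1 of that group brought it to 0.70. The kinases of the D-type cyclins differed by -0.03 ± 0.16 (Cdk4) and -0.18 ± 0.31 (Cdk6), and the E-type cyclins by -0.42 ± 0.64 (Ccne1) and 0.15 ± 0.64 (Ccne2). Over the whole table edgeR made 0 calls (0%) and found 765 genes at an unadjusted p under 0.05, DESeq2 called 25 and limma voom 0, and 0 of the 10 genes were among them.

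The D-type cyclins Ccnd1 and Ccnd2 were the genes whose groups did not overlap after transplantation, both lower in the Selp high-derived libraries. This made 2 of the 10 genes, where 5.55% of all genes were apart in this direction and 4.79% in the other. Ccnd1 averaged 109 ± 31.8 CPM (SD, n = 3) in Selp low-derived and 53.0 ± 13.2 CPM (SD, n = 3) in Selp high-derived libraries. Its difference was -1.04 ± 0.37 (log2, SE), or 2.06-fold lower (unadjusted p = 0.0144, adjusted p = 0.979), and it was -0.78 without Selp low-derived replicate 2. Ccnd2 averaged 778 ± 57.6 CPM (SD, n = 3) and 681 ± 44.1 CPM (SD, n = 3), a difference of -0.19 ± 0.14 with an adjusted p of 0.979. Leaving out Selp low-derived replicate 2 and Selp high-derived replicate 1 gave -0.09. Ccnd3 differed by 0.01 ± 0.13. Marker sums were apart between these groups as well, with HSC markers at 3984 to 4772 CPM in Selp low-derived and 4977 to 5333 CPM in Selp high-derived libraries. B cell markers (8 genes) summed to 88.7 to 127 CPM and 68.5 to 82.3 CPM, and Pax5, which defines that lineage, reached at most 0.614 CPM in any library. Their part in the Ccnd1 and Ccnd2 values was not tested.

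The difference between the Selp differences after and before transplantation, which is also the test of whether the rise differed between the inputs, was called for 0 of the 10 genes. Of all genes edgeR called 0 (0%) here and placed 874 under an unadjusted p of 0.05, DESeq2 called 11 and limma voom 0. None of the 10 genes had an unadjusted p under 0.05 or was called by DESeq2. The largest values were -0.77 ± 0.49 for Ccnd1 (adjusted p = 0.879) and 0.70 ± 0.54 for Ccnb1 (adjusted p = 0.882). A rise particular to cells from 1 input was therefore not shown for any of the 10 genes.

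Levels can be compared between genes only per length, and CPM per kilobase of exon (the union of all annotated exons) was used for this. Cdk4 was the highest of the 10 genes in all 4 groups, at 147 in Selp low, 129.9 in Selp high, 193 in Selp low-derived and 189 CPM per kb in Selp high-derived libraries. Ccnd2 followed with group means of 56.9 to 82.7 CPM per kb and Ccnd3 with 40.4 to 47.0. Before transplantation the rest lay far below these 3 genes, from Ccna2 at 11.9 (Selp low) and 9.21 CPM per kb (Selp high) down to Ccne2 at 1.91 and 2.10. Ccna2, Ccnd1, Cdk1, Ccnb1, Cdk6 and Ccne1 followed one another in this lower range, with Cdk6 above Ccne1 in Selp low and below it in Selp high libraries, and neighbours among them differed by less than their SDs. After transplantation Ccna2 (39.4 and 41.3 CPM per kb) had the level of Ccnd3 (40.9 and 41.2) per kb of exon union, but per kb of the longest coding transcript it stood at 54.3 and 56.9 against 170.0 and 171 for Ccnd3. On the exon union scale Cdk1 stood at 26.3 and 25.8. In the Selp low-derived libraries Ccnd1 (23.2 ± 6.76) and Ccnb1 (16.8 ± 7.40) came next, within their SDs of one another, and in the Selp high-derived ones Ccnb1 (21.1 ± 2.12) stood above Ccnd1 (11.3 ± 2.81). Cdk6 remained low, at 10.8 and 9.47 CPM per kb.

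The make-up of D-type cyclin RNA is described without a test. Ccnd1 made up 7.11 ± 2.37% (SD, n = 4) of the summed D-type cyclin CPM per kb in Selp low, 6.75 ± 2.01% (SD, n = 4) in Selp high, 15.6 ± 3.40% (SD, n = 3) in Selp low-derived and 9.13 ± 2.79% (SD, n = 3) in Selp high-derived libraries. Ccnd3 made up 40.3 ± 4.22%, 38.8 ± 4.11%, 28.0 ± 3.63% and 32.9 ± 3.44% in the same order. Ccnd2 held the rest, with group means of 52.6 to 58.0%. In both derived groups the mean Ccnd1 share was larger, and the mean Ccnd3 share smaller, than in the input group. These shares are parts of the same sum, so a larger Ccnd1 share by itself lowers the others. The Ccnd3 level was 47.0 in Selp low, 40.4 in Selp high, 40.9 in Selp low-derived and 41.2 CPM per kb in Selp high-derived libraries. The smaller Ccnd3 share was therefore not read as a separate change in Ccnd3. With the longest coding transcript as the length, Ccnd3 and not Ccnd2 was the largest, at 65.6, 64.2, 52.8 and 58.2%, so the order of these genes depends on the length taken. The ratio of Cdk6 to Cdk4 per kb of exon was 0.0363 ± 0.0187 in Selp low, 0.0235 ± 0.0082 in Selp high, 0.0560 ± 0.0039 in Selp low-derived and 0.0502 ± 0.0035 in Selp high-derived libraries.

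**Figure D4:**
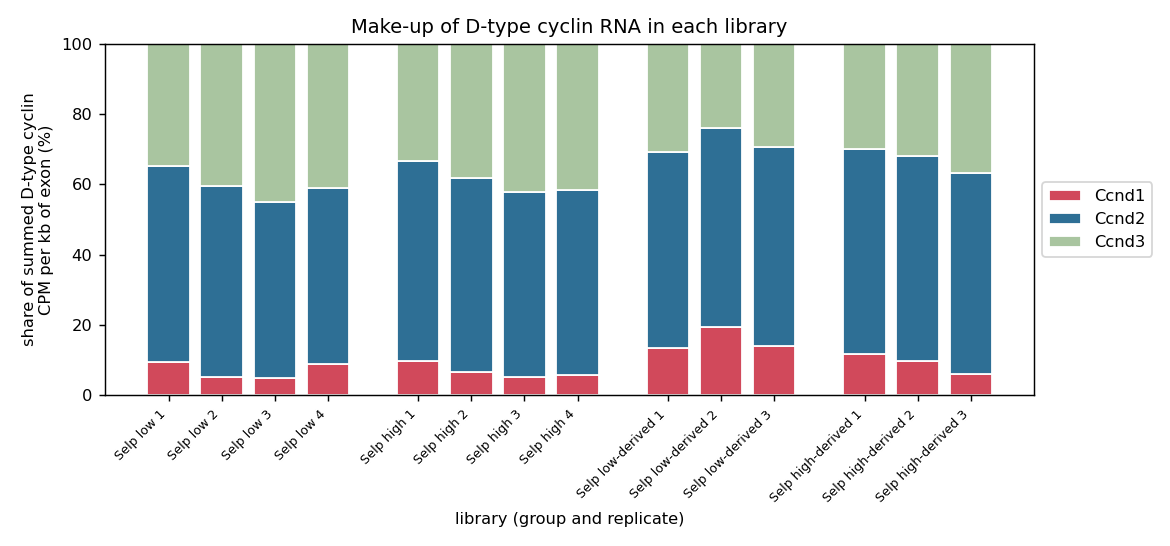
Share of Ccnd1, Ccnd2 and Ccnd3 in the summed D-type cyclin level of each library, in percent of CPM per kb of exon, with 1 stacked bar per library. The Ccnd1 share is largest in the Selp low-derived libraries, where its mean is 15.6%.

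The other genes of the CDK engine were taken from 5 lists of related genes, and 0 genes of any list passed the edgeR test between Selp groups at either stage or in the difference of differences. The counts between stages stand beside the 12.9% of all tested genes called higher and the 14.6% called lower. Between stages, all 12 of 12 phosphatases, kinases, CKS proteins and cyclin destruction factors rose, with a median log2 change of 1.10, and 11 of 12 with the libraries of each mouse summed. Cdc20, which activates the ligase that destroys cyclin B, rose from 41.6 ± 11.3 to 137 ± 39.6 CPM (SD, n = 8 and 6), by 1.74 ± 0.17 (log2, SE, adjusted p = 1.1e-05). Fbxo5, an inhibitor of that ligase, rose by 1.59 ± 0.18, and Wee1, a kinase that holds Cdk1 inactive, rose by 0.71 ± 0.10. Genes that promote and genes that restrain Cdk1 activity were thus both among those that rose.

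CDK inhibitors moved in both directions, with 2 of the 6 tested higher and 3 lower after transplantation (median -0.31), where 27.4% of all genes were called in either direction. Cdkn1a, which encodes p21, fell from 66.2 ± 38.5 to 8.01 ± 3.21 CPM (SD, n = 8 and 6), by 3.06 on the log2 scale with an SE of 0.39 (adjusted p = 7.4e-05). Its libraries did not overlap between stages, with 21.3 to 149 CPM before and 5.05 to 14.2 CPM after. Cdkn1c, which encodes p57 and is known for keeping HSCs at rest, fell by 1.04 with an SE of 0.15. Cdkn2c, which encodes p18, an inhibitor of Cdk4 and Cdk6, rose by 0.90 ± 0.14.

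Of 18 other cyclins tested, 3 rose and 2 fell (median -0.05), shares near those of all genes (12.9% and 14.6%). Ccnb2, a mitotic partner of Cdk1, rose by 2.18 ± 0.27, close to the change of Ccnb1, and Ccnf, a cyclin that serves in a ubiquitin ligase, rose by 1.99 ± 0.22. Ccnl1, a cyclin of RNA splicing and transcription kinases, fell by 0.99 with an SE of 0.16. Of 15 other CDKs tested, 0 rose and 3 fell: Cdk11b by 0.50, Cdk18 by 0.52 and Cdk20 by 0.77 on the log2 scale. This too is near the 14.6% of all genes called lower. Cdk2, the kinase of cyclins E and A and named here after its value was seen, had a difference of 0.25 with an adjusted p of 0.0541. In the RB and E2F list, 6 of 13 genes rose and 2 fell (median 0.43), against 12.9% and 14.6% of all genes. Among them the pocket protein gene Rbl1 rose by 1.11 ± 0.17 and Tfdp1, a dimer partner of E2F factors, by 0.74 ± 0.12, while E2f5 fell by 0.89 with an SE of 0.13.

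**Figure D5:**
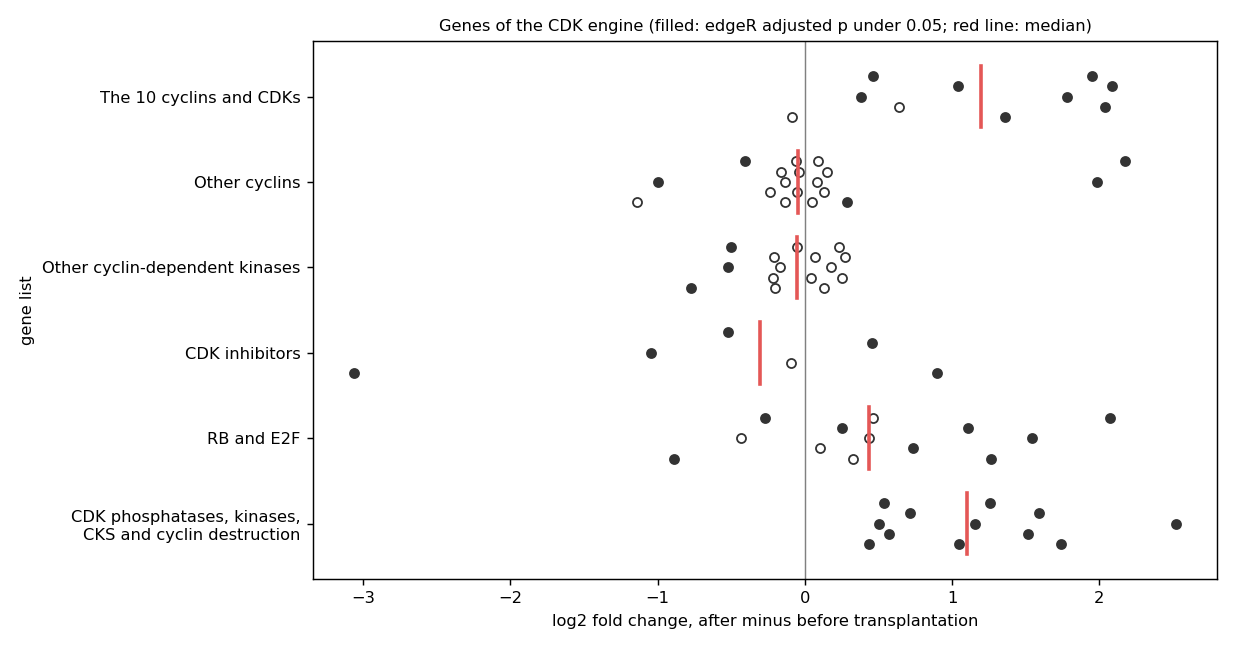
Log2 fold change after minus before transplantation for each tested gene of the 10 cyclins and CDKs and of 5 lists of related genes, with 1 point per gene. Filled points have an edgeR adjusted p under 0.05 and red lines are medians, at 1.20 for the 10 genes, 1.10 for the phosphatases, kinases, CKS and destruction factors and -0.05 for both the other cyclins and the other CDKs.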

How the data were processed

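The deposited values are whole-number counts of reads per gene, made by the authors. Per the submitters' processing notes, the tools were STAR 2.7.0d, Picard 2.23.0 and FastQC 0.11.9, and the build was GRCm38. The annotation release and counting settings are not named there. All 55450 identifiers matched GENCODE M21, which gave symbols, positions and lengths. The counts without regard to strand were used, since the strand sums had a ratio of 0.989 to 0.999. Unmapped, multimapping, unassigned and ambiguous reads (3.35 to 5.06%, 9.93 to 13.4%, 3.37 to 5.13% and 4.20 to 4.79%) were left out.

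The test was edgeR's quasi-likelihood test (edgeR 4.0.16 in R 4.3.3; TMM factors 0.963 to 1.042; minimum count 10) on 4 group means over 14 libraries with 10 residual degrees of freedom, with Benjamini-Hochberg adjustment over 16878 genes. CPM are relative to TMM-scaled library sizes, and log2 CPM carry a prior count of 2. The fit was tested on simulated data with changes between stages only, in genes above a minimum level. Of 100 genes changed by 1 on the log2 scale it called 80%, and of 100 changed by 2 it called 96%, with 8 false calls. Recovery of differences between Selp groups was not simulated. Alternatives were DESeq2 1.42.0, limma voom 3.58.1, other scaling and filter settings, left-out libraries, summed libraries of a mouse and a replicate block. Same-numbered libraries before transplantation had deviations that correlated with r of 0.29 to 0.53 across genes (others -0.40 to 0.05), and 4 mice are named in the labels, so libraries sharing a number were treated as from 1 mouse. After transplantation r was -0.05 to 0.02, so shared numbers were not taken as pairs. A block on these numbers was still run as an alternative setting, and it stands for no known pairing. The 10 genes and the lists were chosen with earlier results of these data known. All 10 were named in every comparison, with up to 3 called genes of smallest p from each list of related genes.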

Additional observations from a re-analysis of the deposited data

Results flagged for a closer look

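In 28 sets of 4 libraries before transplantation, the gap of the highest or lowest library to its neighbour, over the whole range, was compared with Dixon's critical value at 95%, which chance passes in about 1 of 20 groups. The sets reuse the same libraries and overlapping genes and are not independent, so their count cannot be set against that rate. The critical value was passed in 6 sets. In 5 of them the library came from mouse 4 and was the highest. Ccna2 was at 89.1 CPM in Selp low replicate 4, where the other Selp low libraries had 31.6 to 40.04 CPM. Ccnb1 was at 37.7 CPM in that library, against 15.3 to 18.2 CPM. Ccne1 was at 21.7 CPM there, against 3.10 to 6.14 CPM, and Ccne2 at 14.9 CPM, against 3.55 to 4.60 CPM. In Selp high replicate 4, Ccne2 was at 17.7 CPM, where the other Selp high libraries had 2.69 to 4.75 CPM. The sixth was Ccnd3 in Selp low replicate 2, which at 352 CPM was below the 427 to 440 CPM of the other Selp low libraries.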

How the results depend on the processing

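Results were recomputed under 27 settings, 14 of which left out 1 library. The replicate blocks and the fits of 1 stage give no stage value. In the 22 fits that do, 1 of them with the libraries of each mouse summed (chosen after seeing the data), 8 to 9 of the 10 genes were called and 0 of 8 called genes changed direction. In the other comparisons 0 of the 10 genes were called under the alternatives that give them. The call of Ccne1 between stages depended on Selp low replicate 4, as given above. Ranges over these 22 fits were 1.90 to 2.49 for Cdk1, 1.85 to 2.56 for Ccnb1, 1.79 to 2.60 for Ccna2, 1.63 to 2.66 for Ccne2, 1.26 to 1.64 for Cdk6, 0.82 to 1.19 for Ccnd1 (largest adjusted p 0.0492), 0.37 to 0.52 for Cdk4 and 0.35 to 0.45 for Ccnd2. In the list of CDK inhibitors 1 to 2 genes were called higher under the alternatives, and in that of other CDKs 0 to 2. Among other cyclins 2 to 3 genes were called higher and 2 lower, and in the RB and E2F list 5 to 9 higher and 1 to 2 lower.

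The direction of some differences that were not called changed, and the cause was not tested. Before transplantation Ccne2 was -0.025 without mouse 4 and -0.025 when Selp low-derived replicate 2 and Selp high-derived replicate 1 were left out too. Ccnd3 after transplantation was -0.00090 with limma voom, -0.020 with the replicate block and -0.0085 in a fit of those libraries alone, and Cdk1 was 0.020 with limma voom. Without Selp low-derived replicate 2 and Selp high-derived replicate 1, chosen after seeing the data, the values after transplantation were -0.27 for Ccne2 and -0.13 for Ccna2, and the differences of differences 0.036 for Ccnd2 and -0.40 for Ccne2. Without mouse 4 as well, also chosen after seeing the data, they were -0.26, -0.12, 0.047 and -0.24, and Ccnd3 between stages was 0.030.

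Leaving out 1 library at a time gave these ranges before transplantation: Ccnd1 -0.57 to 0.0016, Ccnd2 -0.21 to 0.011, Ccne1 -0.38 to 1.11, Ccne2 -0.79 to 0.90, Ccna2 -0.94 to 0.11, Ccnb1 -0.75 to 0.0046, Cdk1 -0.94 to -0.37 and Cdk6 -0.97 to -0.46. After it they were -0.14 to 0.11 for Ccnd3, -0.14 to 0.17 for Cdk4, -0.31 to 0.0098 for Cdk6, -0.10 to 0.28 for Ccne2, -0.15 to 0.38 for Ccna2, 0.045 to 0.70 for Ccnb1 and -0.24 to 0.34 for Cdk1. For the difference of differences they were -0.20 to 0.016 for Ccnd2, -0.75 to 0.93 for Ccne2 and -0.044 to 1.00 for Ccna2.

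With the replicate block 0 of the 10 genes were called before or after transplantation, although after it the numbers mark no known pairs. Cdk6 before transplantation was -0.71 with the block. With the longest coding transcript as the length, shares of D-type cyclin RNA in Selp low, Selp high, Selp low-derived and Selp high-derived libraries were 3.55, 3.43, 9.03 and 4.96% for Ccnd1, 30.8, 32.4, 38.1 and 36.9% for Ccnd2 and 65.6, 64.2, 52.8 and 58.2% for Ccnd3, and the Cdk6 to Cdk4 ratio was 0.0429 in Selp low-derived and 0.0385 in Selp high-derived libraries. Counts limit the E-type cyclins most, with as few as 72 reads for Ccne2.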
